A study of Mus musculus with 2 samples.

Results

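The regions described here are 5548 distal stretches of open chromatin that were called in both control and Ngn3-OE late retinal progenitor cells (RPCs) and that lost the most rank after Ngn3 overexpression. They are called members below. They were taken from 55484 distal pairs, a pair being a control peak and the Ngn3-OE peak that overlaps it most, with the control summit more than 3 kb from any GENCODE transcript start. The control list held 117165 distinct peaks and the Ngn3-OE list 124935. Within each list every peak was given a rank percentile by its fold enrichment at the summit, with 100 as the highest. The members are the 10% of distal pairs whose percentile fell most from control to Ngn3-OE, so the fall itself is a choice and not a finding.

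Mouse pups were electroporated in the retina at P1 with an Ngn3-OE plasmid or a control plasmid, and GFP-positive cells were sorted at DAE 2 (day 2 after electroporation). ATAC-seq, which reads out accessible DNA by where a transposase inserts, was run once per group, on 50000 sorted cells. The mouse strain and the promoter that drives Ngn3 are not given in the sources used here. With 1 library per group there is no replicate, no test of the condition was possible, and no p-value is given. Every interval below is a 95% interval for counting error only, and it treats peaks as independent, which close neighbours are not.

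Late RPCs are the dividing cells of the newborn retina, which go on to form rods, bipolar cells, some amacrine cells and Müller glia. Distal open regions in such cells are commonly enhancers, stretches of DNA where transcription factors bind and act on genes at a distance. SOX factors are a family of DNA-binding proteins, among which Sox2 maintains neural progenitors and Sox9 is needed for Müller glia. OTX2 and CRX are homeodomain factors of the photoreceptor and bipolar lineages, and Ngn3 (Neurog3) is a proneural bHLH factor that binds E-box sequences.

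The sequences of 12 members are shown. Of these, 11 were picked from the named members because they hold a SOX match, so they do not stand for the members at large, of which 17.1% held one, beside 9.31% of all distal pairs. All are whole control peaks on the plus strand of mm10, read from the RefSeq GRCm38.p6 assembly, and capitals mark each match to the SOX motif, CCATTGT or CCTTTGT read on either strand. Of the 10 members with the highest control fold enrichment, 7 held a SOX match within 100 bp of the summit. The first 4 of these, in order of fold enrichment, lay in introns of Tenm4, of Sox2ot (nearest protein-coding start: Sox2), of Cadps2 and of Grik2.
Tenm4 (chr7:96746060-96746301): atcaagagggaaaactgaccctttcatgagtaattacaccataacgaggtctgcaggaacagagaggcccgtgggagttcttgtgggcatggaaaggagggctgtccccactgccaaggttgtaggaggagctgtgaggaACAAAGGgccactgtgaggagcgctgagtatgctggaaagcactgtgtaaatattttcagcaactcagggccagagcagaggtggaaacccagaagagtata
Sox2 (chr3:34532538-34532835): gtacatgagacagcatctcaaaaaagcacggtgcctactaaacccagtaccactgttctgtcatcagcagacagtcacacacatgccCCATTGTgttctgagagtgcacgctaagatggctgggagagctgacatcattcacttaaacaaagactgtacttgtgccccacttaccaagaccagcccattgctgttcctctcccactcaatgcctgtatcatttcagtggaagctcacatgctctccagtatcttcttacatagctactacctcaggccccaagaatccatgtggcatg
Cadps2 (chr6:23572459-23572705): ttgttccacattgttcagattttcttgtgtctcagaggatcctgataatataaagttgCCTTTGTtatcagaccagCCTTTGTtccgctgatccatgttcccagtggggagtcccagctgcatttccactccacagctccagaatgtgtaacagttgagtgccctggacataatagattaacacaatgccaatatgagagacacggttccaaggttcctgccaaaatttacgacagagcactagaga
Grik2 (chr10:49322529-49322771): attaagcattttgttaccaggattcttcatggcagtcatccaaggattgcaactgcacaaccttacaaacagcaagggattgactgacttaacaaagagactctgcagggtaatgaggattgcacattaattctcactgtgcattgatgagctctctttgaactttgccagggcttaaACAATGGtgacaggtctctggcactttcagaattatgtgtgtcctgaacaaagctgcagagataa
In the Tenm4 peak the match began at base 141 and the summit was at base 131, whereas in the Grik2 peak the match began at base 179 and the summit was at base 130. The Cadps2 peak held 2 matches.

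Of the 15 members that fell furthest in rank among those at or above the 50th control percentile, 10 held a SOX match. The following 4 peaks come from that group and lay nearest to St8sia1, Prkd3, Tmem189 and Rassf10.
St8sia1 (chr6:142941203-142941348): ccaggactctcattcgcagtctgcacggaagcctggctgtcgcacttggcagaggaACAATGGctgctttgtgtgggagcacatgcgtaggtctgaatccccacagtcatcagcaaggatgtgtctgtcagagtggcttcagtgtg
Prkd3 (chr17:78993773-78993954): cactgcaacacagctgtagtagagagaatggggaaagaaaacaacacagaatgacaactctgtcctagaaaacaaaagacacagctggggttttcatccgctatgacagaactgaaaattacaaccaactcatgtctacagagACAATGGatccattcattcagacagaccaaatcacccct
Tmem189 (chr2:167727236-167727484): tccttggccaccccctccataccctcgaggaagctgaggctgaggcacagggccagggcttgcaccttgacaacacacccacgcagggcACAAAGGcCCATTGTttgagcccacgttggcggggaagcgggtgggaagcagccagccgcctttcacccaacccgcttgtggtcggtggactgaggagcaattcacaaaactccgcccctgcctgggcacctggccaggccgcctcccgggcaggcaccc
Rassf10 (chr7:113048463-113048679): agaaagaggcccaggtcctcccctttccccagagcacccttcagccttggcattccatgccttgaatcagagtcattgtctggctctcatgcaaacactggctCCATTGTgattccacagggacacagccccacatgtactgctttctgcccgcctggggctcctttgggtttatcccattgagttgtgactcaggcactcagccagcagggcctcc
The Tmem189 peak held 2 matches of opposite orientation with 1 base between them. Its summit, at base 85, lay beside the first, which began at base 90.

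A further 3 peaks are shown because they lie nearest to genes of the lists described later, the nuclear factor I gene Nfib, the SOX gene Sox5 and the bHLH inhibitor Id4.
Nfib (chr4:82756111-82756233): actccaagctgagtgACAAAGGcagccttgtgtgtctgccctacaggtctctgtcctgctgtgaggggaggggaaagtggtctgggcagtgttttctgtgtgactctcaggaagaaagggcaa
Sox5 (chr6:144454417-144454662): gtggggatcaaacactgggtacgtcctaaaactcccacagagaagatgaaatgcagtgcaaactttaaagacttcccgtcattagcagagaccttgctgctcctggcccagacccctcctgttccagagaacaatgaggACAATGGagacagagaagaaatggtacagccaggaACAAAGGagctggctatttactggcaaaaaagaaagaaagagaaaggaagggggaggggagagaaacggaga
Id4 (chr13:48013295-48013543): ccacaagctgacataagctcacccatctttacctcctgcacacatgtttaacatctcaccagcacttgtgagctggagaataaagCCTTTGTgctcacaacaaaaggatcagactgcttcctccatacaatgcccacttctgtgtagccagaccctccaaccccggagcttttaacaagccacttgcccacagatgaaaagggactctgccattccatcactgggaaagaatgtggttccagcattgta
The member with the furthest fall of all, in an intron of Dlg1, held no SOX match and is shown for contrast, as 1 of 5 such peaks among those 15.
Dlg1 (chr16:31826118-31826344): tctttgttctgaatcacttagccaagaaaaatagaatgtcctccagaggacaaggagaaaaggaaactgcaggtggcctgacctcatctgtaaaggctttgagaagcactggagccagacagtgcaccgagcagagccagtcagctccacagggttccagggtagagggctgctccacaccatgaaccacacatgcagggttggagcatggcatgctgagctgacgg
Each of these 12 peaks had a summit whose central 51 bases occurred once in the assembled chromosomes.

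The members spanned a wide range of control strength and ended low in the Ngn3-OE list. Their median percentile went from 61.3 to 22.1, and their shifts ran from -84.9 to -24.2 percentile points with a median of -33.6. Fold enrichment at the summit fell with it, from a median of 7.93 to 4.46. The number of tags piled up at each summit was recovered from the fold enrichment and the p-value in the lists, and its median was 10 in control and 5 in Ngn3-OE. All 5548 members had fewer tags at the summit in Ngn3-OE, and 3254 of them (58.7%) had at most 0.5 times the control number, beside 7.06% of all distal pairs. The tags come from the fold enrichment that the rule ranked, so these values describe the choice and are not a separate result. Called peaks of the members were narrower after Ngn3-OE, at a median of 105 bp against 149 bp. In the remaining distal pairs they were not, at 151 bp in Ngn3-OE and 140 bp in control. In a sorted pool, fewer cells with the region open and less opening per cell cannot be told apart.

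**Figure D1:**
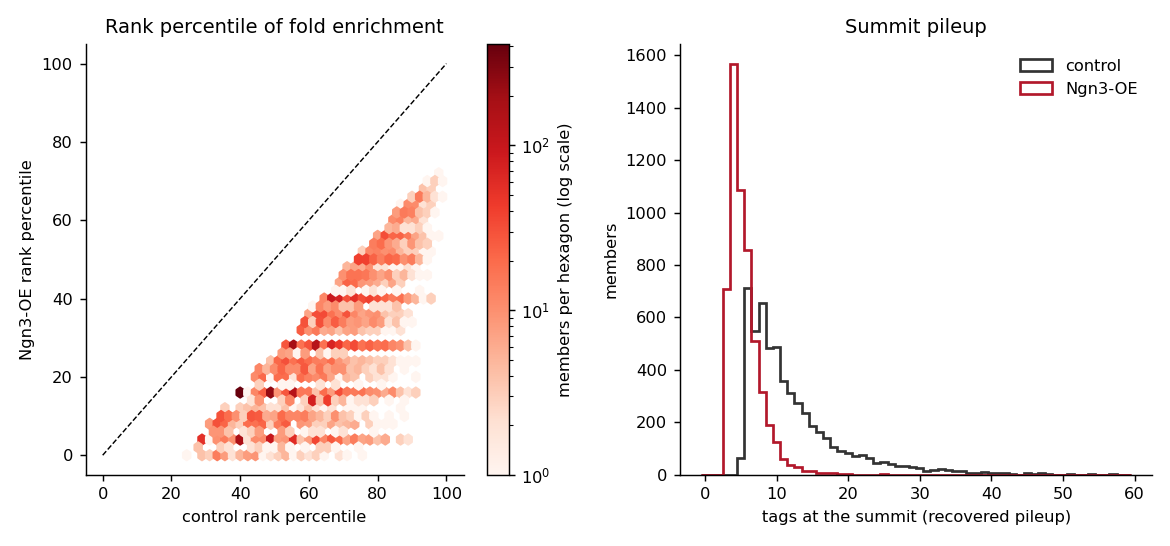
Left, rank percentile of fold enrichment in control (x axis) and in Ngn3-OE (y axis) for the 5548 members, with colour for the number of members per hexagon on a log scale and a dashed line of equal percentile. Right, number of members (y axis) by tags at the summit (x axis, up to 60) in control and Ngn3-OE. All members lie below the line because the rule chose them so, and the median pileup is 10 in control and 5 in Ngn3-OE.

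The peaks of a pair did not always coincide. Overlap of at least 50% of both peaks was present in 4041 members (72.8%) and in 87.3% of remaining pairs, and the summits lay within 50 bp of each other in 77.2% and 83.8%.

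Single members rest on few tags. The exact Poisson intervals of the 2 pileups did not overlap in 431 members (7.77%), beside 1.27% of all distal pairs. The limit of the rule, at -24.2 percentile points, fell among 268 tied pairs with 5 tags in control and 3 in Ngn3-OE, of which 55 were members and 213 were not. Members just inside that limit lay near Ttll6, Nsf and Pecam1, and pairs just outside it near Rgs9, Sox9 and Sdk2, all with 5 tags in control and 3 in Ngn3-OE. A fall of this size was open only to peaks that started high enough. No member came from the lowest 20 percentiles of the control list, and the share of distal pairs that were members was 7.44% at percentiles 20 to 40, 14.8% at 40 to 60, 14.96% at 60 to 80 and 7.45% at 80 to 100. Rises of the same size were more frequent than falls, at 14.3% of distal pairs, and the median shift over all distal pairs was 1.66. Among promoter pairs, with a summit within 1 kb of a transcript start, 4.64% fell at least as far as the members.

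As the files show it, the depth of the libraries was similar. The median pileup over all peaks was 9 tags in both lists, and the lowest local background was 0.261 tags in control and 0.257 in Ngn3-OE. The lists do not give the total number of reads. The labelled cell type was checked at promoters, and all 11 retinal progenitor genes examined had a peak within 1 kb of a start site in both libraries, with a median percentile of 74.4 in control and 77.2 in Ngn3-OE. Of genes for other cells, microglia had 2 of 6 in control and 3 of 6 in Ngn3-OE, endothelium 2 of 5 and 1 of 5, pigment epithelium 2 of 4 in both, pericytes 1 of 2 in both and astrocytes 2 of 2 in both. Cx3cr1, Aif1, C1qa, Cdh5, Pecam1, Tie1, Rpe65, Tyr and Rgs5 had none in either library. Best percentiles ran from 55.8 to 78.5 in control and 28.5 to 87.8 in Ngn3-OE for microglia, 14.9 to 19.1 and 47.3 for endothelium, and 92.8 to 99.8 and 93.6 to 99.9 for pigment epithelium. They were 51.8 and 45.6 for the pericyte gene Pdgfrb, and 24.1 to 63.4 and 33.7 to 76.5 for the astrocyte genes. The part of such cells in the members was not tested.

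The SOX motif was about 2 times as frequent in the members as in the remaining distal pairs. It was found within 100 bp of the control summit in 946 of 5548 members, or 17.1% (Wilson interval 16.1 to 18.1), in 8.45% of the 49936 remaining pairs (8.21 to 8.70) and in 9.31% of all distal pairs. The difference between members and remaining pairs was 8.60 percentage points (Newcombe interval 7.60 to 9.64). Among the 5548 distal pairs that rose most the share was 6.87% (6.23 to 7.56). The shorter core ATTGTT, which overlaps the longer motif, gave 16.3% of members and 8.80% of remaining pairs, with 9.55% over all distal pairs. At least 2 SOX matches were present in 107 members (1.93%) and in 231 of the remaining pairs (0.463%), with 0.609% over all distal pairs. Sequence played no part in the rule, but a match is a description of the letters and not a shown binding site.

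The GGATTA sequence bound by OTX2 and CRX showed the opposite order. It was found in 9.25% of members (8.51 to 10.0), in 20.0% of remaining pairs (19.6 to 20.3), in 25.2% of the pairs that rose most (24.1 to 26.4) and in 18.9% of all distal pairs. Members thus carried it 10.7 percentage points less often than the remaining pairs (interval of the difference -11.5 to -9.87). This motif was singled out after its values were seen.

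The E-box CATCTG was also less frequent in the members. An exception was windows of 0 to 40% GC, where it was present in 22.1% of members and 21.3% of remaining pairs. The interval of that difference included 0 (-2.79 to 4.73). CATCTG occurred in 21.1% of members (20.0 to 22.1), in 27.0% of remaining pairs (26.6 to 27.4) and in 29.4% of the pairs that rose most (28.3 to 30.7), with 26.4% over all distal pairs, and the difference between members and remaining pairs was -5.94 percentage points (-7.06 to -4.78). The longer NGN3 E-box, which contains CATCTG, was present in 2.54% of members, 5.51% of remaining pairs and 5.21% of all distal pairs. The other E-box searched, CAGCTG, gave 22.1% of members and 22.6% of remaining pairs, a difference whose interval ran from -1.62 to 0.681, with 22.6% over all distal pairs.

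Several other motifs differed by smaller amounts. The homeodomain sequence TAATTA was present in 13.97% of members and 9.80% of remaining pairs, a difference of 4.16 percentage points (3.24 to 5.14), with 10.2% over all distal pairs. The TEAD motif GGAATG, bound by the partners of YAP, gave 12.6% against 10.4% (interval of the difference 1.31 to 3.14) and 10.6% over all distal pairs. The AP-1 motif TGAGTCA gave 4.96% against 3.95% (difference 1.01, 0.442 to 1.64) and 4.05% over all distal pairs. The nuclear factor I sequence TTGGCA gave 13.4% against 12.1% (difference 1.29, 0.376 to 2.26) and 12.2% over all distal pairs. For the RBPJ motif GTGGGAA, through which Notch signalling acts, the shares were 4.96% and 4.63%, with 4.66% over all distal pairs, and the interval of the difference, -0.241 to 0.960, included 0. The nuclear receptor sequence AGGTCA, at 14.96% and 14.2% with 14.3% over all distal pairs, likewise had an interval that included 0 (-0.201 to 1.77).

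**Figure D2:**
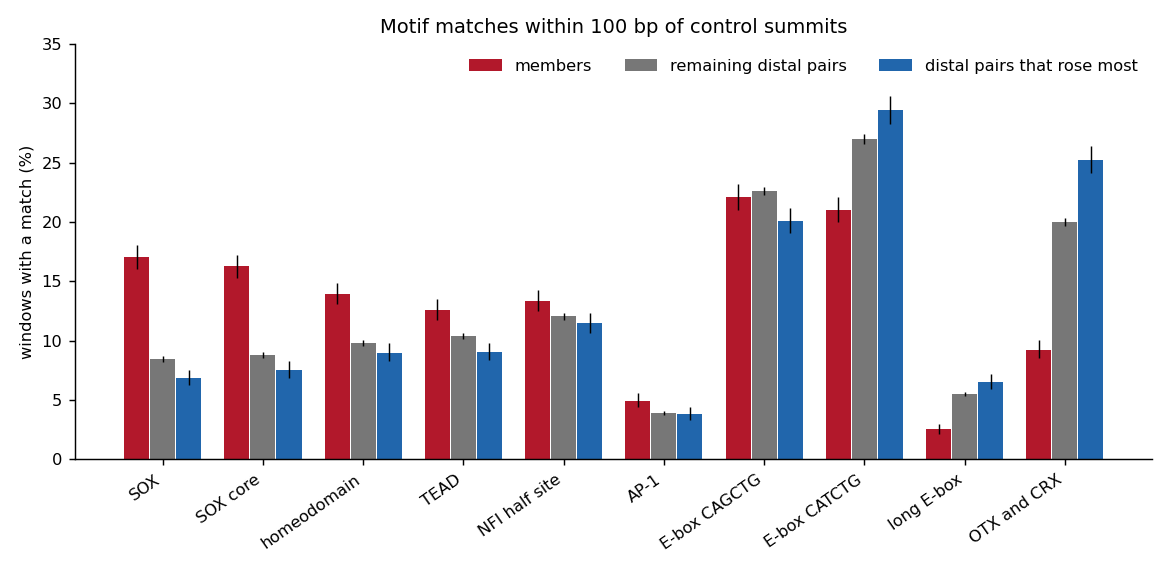
Share of windows of 100 bp on each side of control summits with at least 1 match (y axis, percent) for each motif (x axis) in members, remaining distal pairs and the distal pairs that rose most, as bars with 95% Wilson intervals. SOX is highest in members, at 17.1%, while OTX and CRX is lowest in them, at 9.25%.

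A search over all short sequences was also made. All 8192 sequences of 7 bases, each counted together with its reverse complement, were ranked by the difference in share between members and remaining pairs, a list made after the motif results were known. The sequence at the top was ACAAAGG, the reverse complement of CCTTTGT, at 10.6% of members and 5.37% of remaining pairs. It was followed by AACAAAG at 10.3% and 5.32% and by AACAATG at 8.06% and 3.28%. The next was CTCATTA, which resembles no SOX motif, at 10.6% and 6.21%. At the other end stood CAGATGG, which holds the E-box CATCTG on the opposite strand, at 7.88% and 13.3%, then GGGATTA at 2.60% and 7.41% and AGGATTA at 3.44% and 8.17%, both of which hold GGATTA.

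The SOX difference grew with the strength of the control peak. Among distal pairs at control percentiles 20 to 40, 9.69% of members and 7.74% of remaining pairs held the motif, a difference of 1.95 percentage points (0.0942 to 4.15). At percentiles 40 to 60 the shares were 13.2% and 8.28%, and at 60 to 80 they were 18.1% and 8.85%. At percentiles 80 to 100 the motif was present in 241 of 776 members (31.1%, 27.9 to 34.4) and in 9.47% of remaining pairs, a difference of 21.6 percentage points (18.4 to 24.98). The OTX and CRX share of members went the other way over the same bands, at 14.9%, 9.60%, 8.28% and 4.77%, while that of remaining pairs stayed between 19.4% and 20.3%. The CATCTG share of members was 23.4%, 23.2%, 20.7% and 14.7%, against 25.9% to 27.4% in remaining pairs. The bands also differ in how many tags a fall past the limit takes. The pairs tied at the limit, at control percentile 28.0, went only from 5 tags to 3. Membership in the lower bands thus rests on fewer tags, and the part of this in the trends was not tested. Among the 431 members whose pileup intervals did not overlap, 37.8% held a SOX match (33.37 to 42.5), 19.5% TAATTA (16.0 to 23.5) and 4.41% GGATTA (2.84 to 6.78). Those members have high pileups by construction, with a median control percentile of 87.7 for those with a SOX match and 87.5 for those without.

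**Figure D3:**
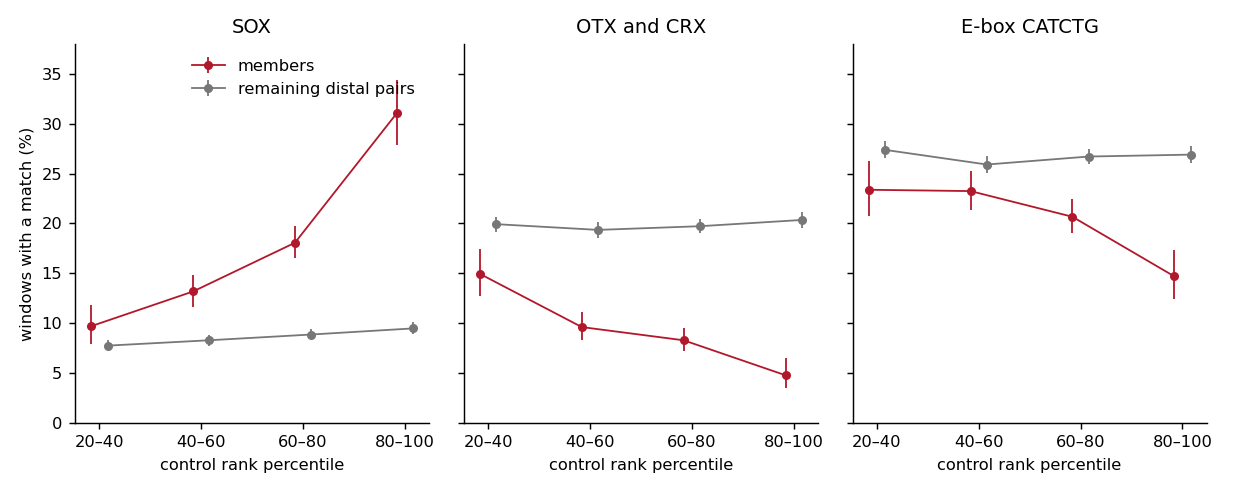
Share of windows with a match (y axis, percent) for SOX, OTX and CRX, and the E-box CATCTG in members and remaining distal pairs by control rank percentile (x axis, 4 bands), as points with 95% Wilson intervals. The SOX share of members runs from 9.69% in the lowest band to 31.1% in the highest, and the OTX and CRX share from 14.9% to 4.77%.

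When all distal pairs were divided into 10 equal groups by shift, the SOX share was 17.05% in the lowest group, which holds the members and 1 further pair, 12.3% in the next and 10.1% in the third, and it lay between 6.72% and 8.89% in the other 7. The OTX and CRX share was 9.26%, 11.2% and 12.9% in the lowest 3 groups and 25.2% in the highest. Base composition differed little, with a median GC content of 48.8% in members and 49.8% in remaining pairs. Within 6 bands of GC content the SOX share of members was between 14.3% and 18.1%, and that of remaining pairs between 6.01% and 9.31%.

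The SOX matches of the members lay close to the summit. In the 50 bp on either side of it there were 59.6 SOX matches per 1000 members in each 50 bp, against 19.2 at 400 to 500 bp from the summit, a ratio of 3.103. In the remaining pairs the ratio was 1.22, and in the pairs that rose most it was 1.03. For GGATTA the ratio was 1.48 in members, 4.03 in remaining pairs and 5.35 in the pairs that rose most. For CATCTG it was 1.598, 2.29 and 2.56.

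**Figure D4:**
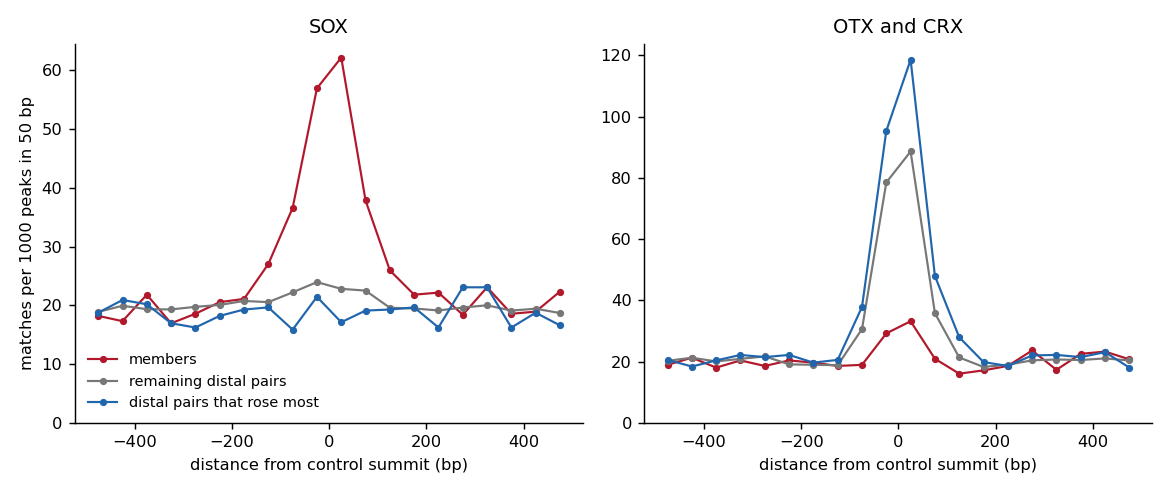
Matches per 1000 peaks in each 50 bp (y axis) by distance from the control summit in bp (x axis) for SOX (left) and OTX and CRX (right), in members, remaining distal pairs and the distal pairs that rose most. SOX matches peak at the summit of members, with 59.6 in the centre and 19.2 at the edges, whereas OTX and CRX matches peak in the other groups.

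Members were placed much as other distal peaks were, but somewhat further from genes. Introns held 2868 members (51.7%, 50.4 to 53.0) and 52.2% of remaining pairs, and intergenic sequence held 2489 members (44.9%, 43.6 to 46.2) and 44.0% of remaining pairs. Coding exons held 73 members. The median distance to the nearest protein-coding start was 36.9 kb in members and 29.2 kb in remaining pairs. More than 100 kb from a protein-coding start lay 26.1% of members (24.96 to 27.3) and 22.0% of remaining pairs (21.6 to 22.4). Chromosomes differed little, with members making up from 8.82% of the distal pairs of chromosome 17 to 10.7% of those of chromosomes 3 and 13. At least 50% of the window was repeat-masked in 2.88% of members and 3.18% of remaining pairs.

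The members that fell furthest had 16 to 26 tags at the summit in control and 3 or 4 in Ngn3-OE. Below, each member is named by its nearest protein-coding start site, which is an assignment and not a shown target. The furthest fall was in an intron of Dlg1, a scaffold protein of cell junctions, at chr16:31826118-31826344, which had 21 tags in control (exact Poisson interval 13.0 to 32.1) and 3 in Ngn3-OE (0.619 to 8.77). An intron of St8sia1, the enzyme that makes the ganglioside GD3, had 22 tags and 3. An intergenic peak 170 kb from Hes1, the transcriptional repressor that carries out Notch signalling in progenitors, at chr16:29893877-29894139, had 18 tags (10.7 to 28.4) and 3. A peak 76.7 kb from Smad1, which transmits BMP signals, had 18 and 3. Of these 15, 12 were not pairs when 50% overlap of both peaks was required, Dlg1 and Hes1 among them, whereas St8sia1, Smad1 and Rere were. The summits of the 15 pairs lay 7 to 91 bp apart, with a median of 55 bp. None of the 15 held GGATTA, and 2 held CATCTG.

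The strongest members in control lay at percentiles 95.9 to 98.99 of the control list and 40.3 to 72.9 of the Ngn3-OE list. The intron of Tenm4, a teneurin of the cell surface, had 58 tags in control (44.0 to 74.98) and 11 in Ngn3-OE (5.49 to 19.7), a change from percentile 98.99 to 69.8. The peak in Sox2ot, 118 kb from the start of Sox2, had 57 tags (43.2 to 73.9) and 8 (3.45 to 15.8), from percentile 98.4 to 56.4. The intron of Cadps2, which primes dense-core vesicles, had 51 tags (37.97 to 67.1) and 10 (4.795 to 18.4). The intron of Grik2, a kainate receptor subunit, had 46 and 12. A pair of peaks near Lrrc4c, a postsynaptic adhesion protein, each had 40 tags in control, with 10 and 6 in Ngn3-OE. None of these 10 members held GGATTA or CATCTG. All 10 were still members with 50% overlap of both peaks, and 3 with the lowest 5% of shifts.

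Members were spread over 3430 of the 11256 genes that had a distal pair. At least 2 members were assigned to 1190 genes, and at least 5 to 98. The genes with the most members also had many distal pairs. Tenm3 and Zfp608 had 13 members each, of 71 and 95 pairs, Tenm2 and Celf4 had 12 each, of 55 and 89, and Tenm4 had 11 of 54. Adgrl2 had 10 of 69, and Lrrc4c, Sox5, Macrod2 and Adgrl3 had 9 each, of 25, 35, 41 and 43. These counts move with the choices, Zfp608 to 20 and Tenm3 to 10 by the pileup ratio and Tenm4 to 3 with the lowest 5%. Tenm2, Tenm3 and Tenm4 encode teneurins, and Adgrl2 and Adgrl3 encode latrophilins, adhesion receptors that bind teneurins. Against the 10.0% that the rule fixes, members made up 36.0% of the pairs of Lrrc4c, 25.7% of Sox5, 20.4% of Tenm4 and 14.5% of Adgrl2. The same genes also held pairs that rose most, 10 at Celf4, an RNA-binding protein of neurons, 8 at Adgrl2, 6 each at Tenm2 and Tenm3, 3 at Adgrl3 and 1 at Tenm4. The median shift over all distal pairs of Tenm2 was 4.45 and of Tenm3 1.21.

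Some loci held several members close together. Ptprz1, a receptor phosphatase of radial glia and glial cells, had 7 members among its 12 distal pairs and none among the pairs that rose most. The strongest Ptprz1 members had 45 tags in control and 10 in Ngn3-OE (chr6:22794402-22794670), 36 and 10 (chr6:22834625-22834903) and 23 and 6 (chr6:22833716-22833905), and 3 of the 7 held a SOX match. Ptprz1 was chosen for this account after its values were seen.

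The longest run of members was at Fat1, an atypical cadherin, and it too was chosen after its values were seen. A run is a chain of members each within 50 kb of the next, and here 6 of the 8 distal pairs across 100.59 kb of chromosome 8 were members, from 28 tags to 8 at the strongest Fat1 peak (chr8:44785268-44785449) to 7 tags to 4 at the weakest. No Fat1 member held a SOX match. There were 7 runs of 5 members, and the one at Sox6 is described here after its values were seen, as it held the most SOX matches of the 7. In an intronic stretch of 84.4 kb in Sox6, 5 of 7 distal pairs were members, and 3 of these held a SOX match. The first Sox6 member shown in rank order of its fall, at chr7:115669757-115669897, had 11 tags in control and 3 in Ngn3-OE.

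Clustering of the members was close to that of the pairs that rose most, and its direction depended on the measure. Another member lay within 50 kb of 1823 members (32.9%, 31.6 to 34.1), and the corresponding share for the pairs that rose most was 34.2% (33.0 to 35.5). Among all distal neighbours within 50 kb, 11.1% of the neighbours of members were members, against 9.30% of the neighbours of remaining pairs, and 10.7% of the neighbours of pairs that rose most were themselves such pairs. Members had 3.97 distal neighbours on average and the pairs that rose most had 4.14. Of all members, 3725 stood alone at this distance.

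Lists of genes for cell types and pathways were compared by the share of their distal pairs that were members, beside the 10.0% over all distal pairs. The share was above 10.0% in 10 of 13 lists, but the Wilson interval left out 10.0% in only 2 of them, those of Müller glia and SOX factors. The 10.0% is not matched for control strength, with which the share of members varied. The median control percentile was 61.3 in the pairs of each of these 2 lists and 55.8 over all distal pairs. The part of control strength in the shares of the lists was not tested. The difference from all distal pairs kept its sign under every alternative run in the lists of Müller glia, SOX factors, FGF, Wnt and Hedgehog signalling, rods and ganglion cells, and changed it under at least 1 in the other 8. The lists overlap, since Sox8, Sox9, Nfia, Nfib and Nfix belong to the glial list and also to those of SOX or nuclear factor I, Sox2 to those of SOX and progenitor genes, and Fgf15 and Sfrp2 to those of progenitors and signalling.

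Near SOX genes, 31 of 206 distal pairs were members (15.05%, 10.8 to 20.6) and 17 were among those that rose most (8.25%). Of the 13 genes, 8 had a member. With the rule as given, most lay at Sox5 (9 of 35 pairs) and Sox6 (8 of 22), which encode SOX proteins without an activation domain of their own, then Sox2 and Sox9 (3 each, of 31 and 40) and Sox13 (3 of 9). The Sox5 member shown above had 15 tags in control and 3 in Ngn3-OE, and 11 of the 31 members held a SOX match. With 50% overlap of both peaks the Sox5 count was 2. The share of the list depended on the choices made. It was 23.8% when members were chosen by the ratio of pileups and 30.4% when only pairs inside the body of a listed gene were counted. Beyond 10 kb from a start it was 13.3%, and with 50% overlap of both peaks it was 11.8%, and in both cases the interval of the difference from all distal pairs included 0 (-1.08 to 9.25 and -2.31 to 7.70 percentage points).

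Near Müller glia genes, 26 of 179 distal pairs were members (14.5%, 10.1 to 20.4) and 16 were among those that rose most (8.94%). Nfib had 6 of 47 pairs and Nfia 4 of 17. Slc1a3, the glial glutamate transporter GLAST, had 4 of 16, of which the one highest in the control list, in a Slc1a3 intron at chr15:8659507-8659981, had 51 tags in control (37.97 to 67.1) and 10 in Ngn3-OE (4.795 to 18.4) and held a SOX match. Another of the Slc1a3 members had 55 tags and 15. Aqp4, the glial water channel, had 2 of 7. Sox9 had 3 of 40, with 4 among the pairs that rose most. Of the 18 genes of the list with a distal pair, 11 had a member. Glul had 0 of 5, with 3 among the pairs that rose most and a median shift of 34.7. Rlbp1 had 0 of 6, Kcnj10 0 of 3, Clu 0 of 3 and Vim 0 of 1. By the ratio of pileups the share of the list was 21.2%. The interval of its difference from all distal pairs included 0 with the lowest 5% (-1.12 to 6.35), with the lowest 20% (-1.65 to 10.8) and with 50% overlap of both peaks (-0.498 to 10.4).

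Near progenitor and eye field genes, 27 of 240 pairs were members (11.3%, 7.85 to 15.9). By the ratio of pileups the share was 14.6%, and the interval of its difference from all distal pairs left out 0 (0.677 to 9.61). Over all alternatives that difference ran from -2.31 to 5.00 percentage points. Nr2f1, a nuclear receptor of progenitors, had 8 of 27, the furthest fall being from 16 tags to 3, and Meis1, a homeobox gene, had 5 of 48, the furthest from 24 to 4. Pax6 had 3 of 13, and Six3 had 3 of 35 (8.57%). Of the 15 genes of the list with a distal pair, 10 had a member. Lhx2 had 0 of 10, with 3 among the pairs that rose most, and Rax 1 of 5, with 2 that rose most. Meis2 had 1 of 30. Near Notch pathway genes the count was 23 of 191 (12.04%, 8.16 to 17.4), with 11 among the pairs that rose most (5.76%). The Notch share was 8.07% with 50% overlap of both peaks, and when only pairs at or above the 50th control percentile were used the interval of its difference left out 0 (0.118 to 12.9). Hes1 had 5 of 19, Notch1, a receptor, 3 of 9, and Jag1, a ligand, 2 of 8. Of 2 members at Id4, an inhibitor of bHLH factors, the one shown above had 23 tags in control and 6 in Ngn3-OE.

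For signalling, genes of the FGF, Wnt and Hedgehog pathways had 30 of 218 pairs as members (13.8%, 9.81 to 19.0). The interval of their difference from all distal pairs included 0 (-0.187 to 8.97), but left it out with ranking by q-value (0.594 to 9.99), the lowest 20% (0.344 to 11.9), the pileup ratio (2.97 to 13.0) and 50% overlap (1.602 to 12.2), among others. Gli3, a transcription factor of the Hedgehog pathway, had 5 of 17, the strongest with 34 tags in control and 7 in Ngn3-OE. Hhip, which binds Hedgehog ligands and limits them, had 3 of 6, and Tcf7l2, a Wnt effector, 7 of 31. Genes of TGF-β and BMP signalling had 28 of 242 (11.6%, 8.13 to 16.2), with 29 among the pairs that rose most. Nuclear factor I genes had 10 of 74 (13.5%, 7.51 to 23.1) and cell cycle genes 10 of 91 (11.0%, 6.08 to 19.1).

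For the lists of neurons the intervals all included 10.0%, and differences between lists were not tested. Bipolar cell genes had 14 of 94 pairs as members (14.9%, 9.08 to 23.5) and 5 among those that rose most (5.32%). Their difference from all distal pairs left out 0 when peaks were ranked by q-value (0.758 to 15.9), with the lowest 5% (0.120 to 12.2) and with 50% overlap (3.71 to 21.4), while with any start within 100 kb counted the share was 8.87%. Amacrine and horizontal cell genes had 17 of 127 (13.4%, 8.53 to 20.4) and 9 (7.09%). Barhl2, an amacrine factor, had a member that fell from 33 tags to 6 at chr5:106466258-106466416, and Ptf1a, which commits cells to the amacrine and horizontal fates, had 2 of 6 pairs. Rod photoreceptor genes had 4 of 81 (4.94%, 1.94 to 12.02) and 12 among those that rose most (14.8%, 8.68 to 24.1). Ganglion cell genes had 6 of 113 (5.31%, 2.46 to 11.1) and 11 (9.73%). By the ratio of pileups 2 ganglion cell pairs were members (1.77%), and with the lowest 20% the difference from all distal pairs was -11.2 percentage points (-15.1 to -4.47). Proneural and neurogenic genes had 10 of 118 (8.47%, 4.67 to 14.9) and 5 (4.24%).

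**Figure D5:**
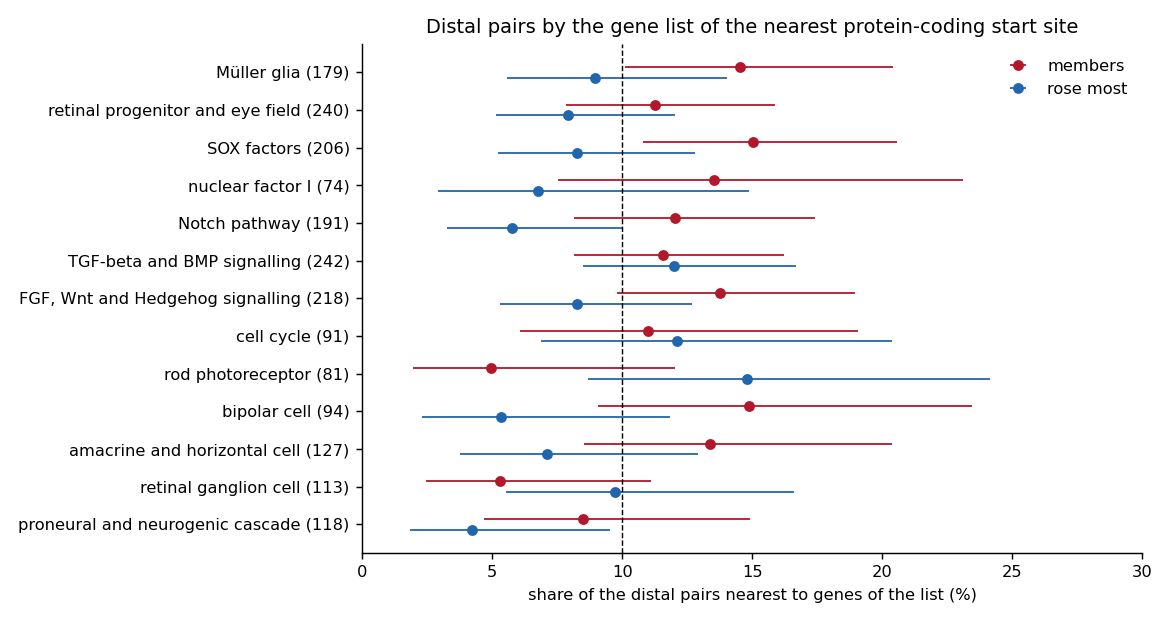
Share of the distal pairs nearest to the genes of each list (x axis, percent) that were members or that rose most, as points with 95% Wilson intervals, with the number of pairs of each list in brackets and a dashed line at 10%. Members make up 15.05% of the pairs of SOX factors and 14.5% of those of Müller glia, and 4.94% of those of rod photoreceptor genes.

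The promoters of the genes nearest to members moved little. For each gene the strongest promoter pair was taken, a measure that the rule did not use but that comes from the same libraries. Among 2864 genes with at least 1 member, the median promoter shift was -0.180 percentile points and 53.5% were lower in Ngn3-OE (51.7 to 55.3), whereas among 5981 genes with distal pairs and no member the median was -0.0553 and 51.0% were lower (49.8 to 52.3). Among the 447 genes with 3 or more members 51.5% were lower (46.8 to 56.1). These promoter pairs ranked high in control, at a median percentile of 88.7 for genes with a member and 90.5 for genes without. A percentile has little room to rise there, so a small shift does not show that a promoter was unchanged. The difference in share lower between genes with and without a member was 2.50 percentage points (0.273 to 4.72), but its interval included 0 under 5 alternatives, among them the lowest 20% (-0.568 to 3.60) and 50% overlap of both peaks (-1.26 to 3.41). Single promoters varied more. That of Sox2 shifted by 2.95 percentile points, that of Sox5 by 1.26, that of Sox6 by -12.9, that of Sox9 by -9.11, that of Nfib by -14.8, that of Notch1 by -16.1, that of Hes1 by 0.942 and that of Lrrc4c by 28.6.

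Peaks called in only 1 library were not divided very differently near members. Within 50 kb of a member there were 5893 distal peaks found only in control and 7302 found only in Ngn3-OE, so that 44.7% were control-only (43.8 to 45.5), against 43.6% of the 1-library peaks further from members, a difference of 1.03 percentage points (0.0140 to 2.04). That interval included 0 with 50% overlap (-0.137 to 1.97), with tied pairs left out (-0.0261 to 2.01) and within 100 kb (-0.292 to 1.57). The share was 43.0% (42.2 to 43.9) near the pairs that rose most and 43.9% of all distal peaks of 1 library. The distal control-only peaks held a SOX match in 13.1% (12.6 to 13.6), between the members and the remaining pairs, and GGATTA in 10.9% (10.5 to 11.4). The Ngn3-OE-only peaks held SOX in 7.04% (6.73 to 7.37) and GGATTA in 21.8% (21.2 to 22.3).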

How the data were processed

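The authors sorted GFP-positive cells, trimmed reads with Trimmomatic, aligned them with Bowtie2 to mm10, removed duplicates, mitochondrial reads and blacklisted regions, kept short fragments, shifted read ends for Tn5 and called peaks per library with MACS2 at a q-value limit of 0.05. The deposited lists give, per summit, a score, a fold enrichment (a ratio over local background), and the -log10 p-value and -log10 q-value. None is normalised between libraries, so within-list ranks were compared. Control held 128853 lines and Ngn3-OE 136761. On 21 chromosomes, lines of 1 interval were merged, keeping that of highest fold enrichment. In 1 control and 3 Ngn3-OE lines without a summit the middle of the interval was used.

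Pileup and background were solved from fold and p-value through the Poisson model, and a whole number was recovered for 100% of peaks within 0.002 of the -log10 p-value. More than 1 number passed for 4786 control and 782 Ngn3-OE peaks, where the number closest to the listed p-value was taken. Small pileups limit precision. The length to which tags were extended is not given in the sources used here, so a tag is not a read.

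Starts came from GENCODE M21 (all transcripts) and sequence from the RefSeq GRCm38.p6 assembly, the build of mm10. In all, 17 motif sets were searched in windows of 100 bp on each side of the summit, and those of under 8 letters, with the longer E-box, are reported. Shares have Wilson and differences Newcombe intervals (Python 3.11.15, SciPy 1.17.1). Steps were tested on simulated data.

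The members, gene lists and motifs were chosen with earlier results of these data known. Named were the 15 members of largest fall at or above the 50th control percentile, the 10 of highest control fold enrichment, the 10 genes with most members, up to 4 genes per list, and the 3 pairs on each side of the limit, beside genes said to be chosen later. Not all genes so named are described, and some items are not reported here. Alternatives were other rankings, set sizes, distances, pairing, windows, motifs and gene assignments. The authors' differential regions were not used here.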

Additional observations from a re-analysis of the deposited data

How the results depend on the processing

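The shares of the SOX, OTX and CRX, and homeodomain motifs and of the E-box CATCTG, the intron share, clustering, gene lists, promoters, 1-library peaks and counts were recomputed under other choices, and the remaining comparisons were not. No condition was tested, so values and counting intervals were compared. The SOX difference between members and remaining pairs, 8.60 percentage points, stayed above 0, from 5.54 to 11.9, and the GGATTA difference stayed below 0, from -15.7 to -3.76. The CATCTG difference changed sign among windows of 0 to 40% GC, to 0.801 points, with an interval that included 0 (-2.79 to 4.73). The cause was not tested. With the lowest 5% there were 2774 members, 91.2% of them at or below 0.5 times the control pileup, with differences of 11.7 (SOX), -7.68 (CATCTG) and -11.6 (GGATTA). With the lowest 20% there were 11097, with 34.5% and a SOX difference of 6.73. By the pileup ratio the pileup share was 70.6%, which that choice itself sets, with 11.9 for SOX, -12.5 for GGATTA, 0.847 for clustering (members minus pairs that rose most, -1.39 as reported) and 2.76 for control-only peaks nearby (share near members minus share elsewhere, 1.03 as reported). Beyond 10 kb the pileup share was 62.5%. With 50% overlap of both peaks the values were 50.4%, 7.09 for SOX, -4.72 for CATCTG and 1.302 for clustering. When the lowest 10% was drawn only from pairs at or above the 50th control percentile, which leaves 3128 members and drops 2 of the 10 strongest members, Grik2 and Gpr12, they were 80.7%, 10.6, -7.31, -11.7 and 1.65 for introns (-0.515 as reported). With all tied pairs in, the pileup share was 56.5%. In windows of 50 bp a side SOX gave 6.46 and GGATTA -8.95, and of 250 bp a side GGATTA gave -9.53. The core ATTGTT gave 7.45 and the longer E-box -2.96. Over GC bands SOX moved to 5.54 (0 to 40%), 6.72 (55 to 60%) and 11.6 (60 to 100%), CATCTG to -7.99 (55 to 60%) and -8.53 (60 to 100%), and GGATTA to -14.8, -15.7, -11.9, -7.57 and -3.76 in all bands but 50 to 55%. Control-only peaks of -log10 q of at least 5 gave 2.07. Between 7 and 11 of 13 gene lists stood above the background. With 50% overlap 12 of the 15 furthest falls were not pairs, and with the lowest 5% 7 of the 10 strongest were not members. Beyond 10 kb 3 of each were not pairs.

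No paired analysis was possible because each group has 1 library, and for the same reason no replicate was left out. Pileups of a few tags limit single members, ranks depend on the length of each list, and total reads are not in the files.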
